A study of Mus musculus with 2 samples.

Results

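Syndecans and glypicans are the cell-surface proteins that carry most of the heparan sulfate displayed by animal cells. The 9 genes followed here were chosen by name, 4 syndecans (*Sdc1*, *Sdc2*, *Sdc3* and *Sdc4*) and 5 glypicans (*Gpc1*, *Gpc2*, *Gpc3*, *Gpc4* and *Gpc6*), out of 14450 mouse genes with a tag of their own in at least 1 of 2 libraries. Tags belonging to a single gene were found for 6 of the 9 members (*Sdc1*, *Sdc2*, *Sdc4*, *Gpc1*, *Gpc4* and *Gpc6*), and for *Sdc3*, *Gpc2* and *Gpc3* none was listed. The study used digital gene expression tag profiling, which counts short sequence tags cut next to CATG sites of mRNA. It compared 2 mouse cell lines that it describes as male germ cells, with 1 library each. By the study's account, GC-1spg came from type B spermatogonia of a mouse aged 10 days, transformed with pSV3-neo, a plasmid that carries the SV40 early region. The study describes its traits as lying between those of type B spermatogonia and those of primary spermatocytes. GC-2spd (ts) is described as a spermatocyte line from a mouse aged 6 weeks, transformed with SV40 large T antigen. Its submitters describe it as halted before meiosis with no remaining capacity to differentiate. Both lines were grown in DMEM with 10% FBS, to which sodium bicarbonate was added at 1.5 g/L. Each named stage was represented by 1 transformed line, so stage, line and library cannot be told apart.

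Syndecans cross the membrane and have a short cytoplasmic tail that binds PDZ proteins and the cytoskeleton, whereas glypicans are held in the outer leaflet of the membrane by a glycosylphosphatidylinositol anchor. The heparan sulfate chains of both families bind growth factors, morphogens, chemokines and matrix proteins. In the testis, syndecans have been described in Sertoli cells.

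Each tag consisted of the NlaIII site CATG and the 17 bases that follow it. The tags below were chosen because the values of the members turn on them. Capitals mark the NlaIII site, and each tag reads 5′ to 3′.
Sdc1, most copied tag, 3′ UTR: CATGgactcagggccacggcc
Sdc2, most copied tag, coding sequence: CATGcggaagaaagatgaagg
Sdc3 and Sdc4, tag present in the coding sequence of both: CATGaagaagaaggacgaagg
Sdc4, sense tag of the site nearest the 3′ end, 3′ UTR: CATGttggctggatggttgcg
Sdc4, antisense tag of that same site: CATGggacctgtaatatcatt
Gpc1, most copied tag, 3′ UTR, antisense to Ankmy1: CATGctgtacagggcagccgg
Gpc1, most copied tag that fits no other gene, 3′ UTR: CATGcagaaggcctggaaaaa
Gpc2, most copied tag, 3′ UTR, present also in Gm43720: CATGggggtacctggtattga
Gpc4, most copied tag, 3′ UTR: CATGttatcttattaaaagaa
Gpc4, reference form of a coding tag: CATGcagaggcaaagccctac
Gpc4, form of that tag with the substitution G10A: CATGcagagacaaagccctac

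There were 5072149 clean tags from GC-1spg and 4726808 from GC-2spd (ts), so that 1 copy was worth 0.197 and 0.212 TPM, the copies scaled to 1000000 clean tags. Pairs of values below give GC-1spg first and GC-2spd (ts) second. Tags seen once had been removed, and the lowest listed value was 2 copies. Unambiguous sense tags, those that fit the sense strand of 1 gene and nothing else, made up 54.7% and 57.9% of the copies. Every interval below is an exact 95% interval for counting error only, and every test compares these 2 libraries and not the stages, because neither line had a replicate. In bulk RNA, fewer cells with a transcript and fewer transcripts per cell cannot be told apart. The germ line label was checked against 12 germ cell genes, among them *Ddx4*, *Dazl*, *Stra8* and *Sycp3*, and all 12 were at 0 in both libraries by unambiguous sense tags. With tags of several genes added, *Sycp1* had 10 and 112 copies and *Sycp3* 2 and 0, all from tags that also fit other genes. Tags of a single gene therefore did not bear out the germ cell label in either library, for these 12 genes at this depth. Of 10 Sertoli cell genes, 7 were listed, with a summed level of 318 and 97.3 TPM; *Wt1* had 620 and 0 copies and *Clu* 902 and 262, whereas *Gata4* (29 and 138), *Sox9* (29 and 46) and *Inha* (4 and 14) were at higher values in GC-2spd (ts), and *Fshr*, *Rhox5* and *Cldn11* were at 0 in both. All 7 peritubular myoid genes were listed (94.0 and 279 TPM), and of these only *Des* (11 and 4 copies) was lower in GC-2spd (ts). Few copies lay behind *Myh11* (0 and 2), *Tagln* (0 and 3) and *Cnn1* (5 and 15). Only *Acta2* passed the calling rule given below, and it failed with the site nearest the 3′ end alone (0 and 3 copies). By some other ways of counting, *Tpm1* and *Tagln* passed that rule as higher. Of 10 fibroblast genes 7 were listed (3307 and 2371 TPM, with *Lum*, *Thy1* and *Fap* at 0). *Col1a1* (10465 and 2425 copies), *Dcn* (710 and 2) and *Pdgfra* (85 and 74) were lower in GC-2spd (ts). The fibroblast genes *Vim* (984 and 2897), *S100a4* (3873 and 4784), *Col1a2* (605 and 907) and *Col3a1* (50 and 120) were higher. Of 8 Leydig cell genes 3 were listed (0.789 and 40.8 TPM). *Nr5a1* had 0 and 188 copies, so almost all of the GC-2spd (ts) level and none of the GC-1spg level came from it. The part of these marker differences in the results for the members was not tested.

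The syndecan transcripts as a group were lower in GC-2spd (ts) than in GC-1spg and the glypican transcripts were higher. The copies of the syndecans summed to 1888 and 637, or 372 and 135 TPM, which was 2.76-fold lower in GC-2spd (ts) (2.52 to 3.03). The glypicans summed to 67 and 253 copies, or 13.2 and 53.5 TPM, which was 4.05-fold higher (3.08 to 5.39). This fold depended on the counting. It was 2.30 with sense matches preferred, 2.29 with the longest transcript, 1.99 with tags of several genes added and 7.64 with the site nearest the 3′ end alone. A gene was called at a false discovery rate (FDR) of at most 0.001 over all 14450 genes and a log2 ratio of at least 1 in size. By this rule 2 members were called lower (*Sdc1* and *Sdc4*), 2 were called higher (*Gpc1* and *Gpc4*), 2 were not called (*Sdc2* and *Gpc6*) and 3 had no count. Of all genes tested, 19.5% were called, 11.7% higher and 7.84% lower in GC-2spd (ts). Among the 7100 genes with at least 100 copies over both libraries, to which *Sdc1*, *Sdc2*, *Sdc4*, *Gpc1* and *Gpc4* belong, 25.3% were called, 16.5% higher and 8.77% lower. The median log2 ratio was -1.35 over the 3 counted syndecans and 1.14 over the 3 counted glypicans, beside 0.16 over the 11373 genes listed in both libraries. The 2 family medians are the values of *Sdc4* and *Gpc1*. The *Gpc1* count left out its most copied tag, and *Gpc6* entered with 2 and 4 copies.

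**Figure D1:**
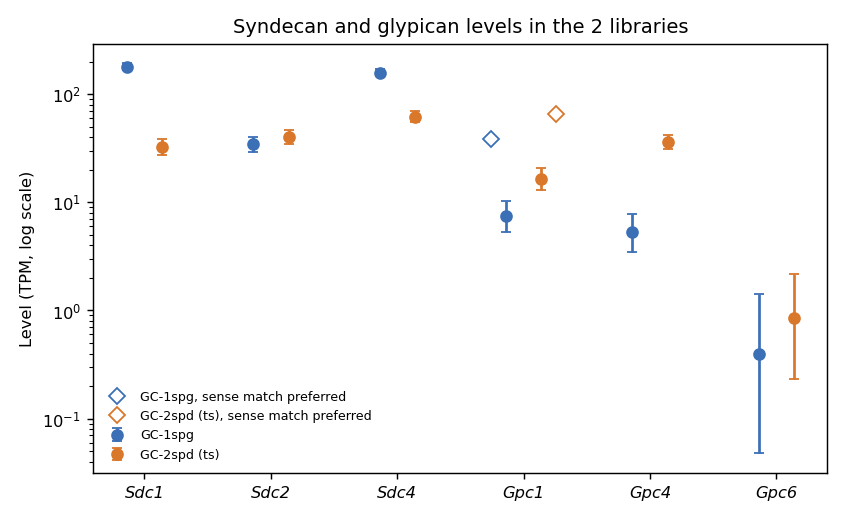
Level of the 6 members with unambiguous sense tags in the 2 libraries, in TPM on a log scale, with exact 95% intervals for counting error; the open diamonds give Gpc1 when tags antisense to another gene are kept. Sdc1 (180 and 32.6 TPM) and Sdc4 (158 and 62.0 TPM) were lower in GC-2spd (ts), Sdc2 had overlapping intervals, and Gpc4 rose from 5.32 to 36.2 TPM.

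*Sdc1*, which encodes the syndecan typical of epithelia and plasma cells, had 912 copies in GC-1spg against 154 in the other line. These were 180 TPM (168 to 192) and 32.6 TPM (27.6 to 38.2), and the intervals did not overlap. This was 5.52-fold lower in GC-2spd (ts) (4.65 to 6.59), and the log2 ratio was -2.46 (-2.72 to -2.22), with an FDR of 1.93e-118 by the Audic-Claverie test. The most copied tag, at chr12:8792672-8792692 (GRCm38, plus strand, 3′ UTR in exon 5 of 5), had 639 and 83 copies. A tag closer to the end of the transcript, 144 bases from it, had 120 and 38 copies, and a coding tag had 51 and 5 copies. Each of the 5 *Sdc1* tags with at least 10 copies over both libraries was lower in GC-2spd (ts).

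*Sdc4*, the syndecan of focal adhesions, had 802 and 293 copies. Its level was 158 TPM (147 to 169) in the first and 62.0 TPM (55.1 to 69.5) in the second, again without overlap. This was 2.55-fold lower in GC-2spd (ts) (2.23 to 2.93), and the log2 ratio was -1.35 (-1.55 to -1.16), with an FDR of 2.24e-46. The 2 most copied tags both lay in the 3′ UTR in exon 5. The tag at chr2:164424905-164424925 (GRCm38, minus strand) had 337 and 161 copies, and the tag at chr2:164425552-164425572 had 357 and 108 copies. All 6 *Sdc4* tags with at least 10 copies over both libraries were lower in GC-2spd (ts).

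*Sdc2*, the syndecan of mesenchymal cells, had 174 and 190 copies, or 34.3 TPM (29.4 to 39.8) and 40.2 TPM (34.7 to 46.3). The log2 ratio was 0.23 with an interval of -0.08 to 0.53 and an FDR of 0.228, so no difference was detectable at this depth, and the interval left no room for a 2-fold difference by counting error alone. Most of its copies came from 1 tag in the coding sequence at chr15:33032444-33032464 (GRCm38, plus strand, exon 5 of 5), which had 137 and 150 copies. This was the 12th of 13 CATG sites counted from the 3′ end, 2492 bases away from it. The site nearest the 3′ end of any transcript gave 1.72% and 0% of the *Sdc2* copies, whereas over all genes such sites gave 80.3% and 81.0%. For *Sdc1* the corresponding shares were 86.0% and 81.8%, and for *Sdc4* 49.4% and 60.4%.

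*Sdc3*, the syndecan best known from neural tissue, had 26 possible tags, of which 21 fit no other gene, and none of those 21 was listed. Of the tags that fit another gene too, 2 were listed. The coding tag shown above that *Sdc3* shares with *Sdc4* had 16 and 5 copies. A 3′ UTR tag at chr4:130826186-130826206 (GRCm38, plus strand), which is antisense to *Gm26716*, had 7 and 15 copies. If that second tag is given to *Sdc3*, its level was 1.38 and 3.17 TPM, with a log2 ratio of 1.20 (-0.18 to 2.74) and an FDR of 0.166. The most copied *Sdc2* tag was identical to the tag of *Sdc3* and *Sdc4* at 17 of 21 bases. Both lie in the part of the gene that encodes the start of the cytoplasmic tail.

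*Gpc4*, which encodes a glypican of stem and progenitor cells, had the highest fold of the called members, with an interval that overlapped that of *Sdc1*. It had 27 and 171 copies, or 5.32 TPM (3.51 to 7.74) and 36.2 TPM (31.0 to 42.0). This was 6.80-fold higher in GC-2spd (ts) (4.51 to 10.6), and the log2 ratio was 2.76 (2.17 to 3.41), with an FDR of 8.02e-28. Its most copied tag lay 31 bases from the 3′ end, at chrX:52053031-52053051 (GRCm38, minus strand, 3′ UTR in exon 9 of 9), and had 17 and 121 copies. The next tag towards the 5′ end had 5 and 34 copies. At a coding site of exon 9, chrX:52053575-52053595, the reference form of the tag had 0 and 14 copies, and the form with the substitution G10A, counted from 1 at the 5′ end of the tag, had 5 and 0. All 3 *Gpc4* tags with at least 10 copies over both libraries were higher in GC-2spd (ts).

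*Gpc1*, a widely expressed glypican, had 38 and 78 copies from tags of its own, or 7.49 TPM (5.30 to 10.3) and 16.5 TPM (13.0 to 20.6). The log2 ratio was 1.14 (0.56 to 1.74) and the FDR 0.000191, so *Gpc1* was called higher. This count left out its most copied tag. That tag, at chr1:92860076-92860096 (GRCm38, plus strand, 3′ UTR in exon 9 of 9), had 154 and 220 copies, and lies where *Gpc1* and the convergent gene *Ankmy1* overlap by 977 bases, so that it is also an antisense tag of *Ankmy1*. With tags given to the gene they match in sense, *Gpc1* had 196 and 307 copies, 38.6 and 64.9 TPM, and a log2 ratio of 0.75 (0.49 to 1.02), under the threshold. Under that counting the glypicans summed to 225 and 482 copies, or 44.4 and 102 TPM. The call was also lost with trimmed mean of M values (TMM) scaling, where the log2 ratio was 0.97.

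*Gpc2*, a glypican of developing neurons, had 12 possible tags, of which 6 fit no other gene, and none of those 6 was listed. Its listed tags lie in an overlap of 6304 bases with *Gm43720*, a protein-coding gene model on the same strand. A 3′ UTR tag at chr5:138273960-138273980 (GRCm38, minus strand, exon 10 of 10) had 33 copies in GC-1spg and was unlisted in the other library, and a second tag had 2 and 0 copies. Together these were 35 and 0 copies, or 6.90 TPM against at most 1.33 TPM, which is lower by at least 5.18-fold, with an FDR of 4.87e-10 when tags of several genes were counted for each of them. The limit of 1.33 TPM is the one-sided 95% limit for 2 tags that could each hold 1 unlisted copy. Whether these copies came from *Gpc2* or *Gm43720* cannot be told apart.

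*Gpc6* had 2 and 4 copies, or 0.394 and 0.846 TPM, from 3 tags of 2 copies each. Its log2 ratio of 1.10 had an interval of -1.70 to 4.57, and a difference was not detectable at this depth (FDR 0.702). *Gpc3*, the glypican mutated in an overgrowth syndrome, had 20 possible tags, all of them its own, and none was listed in either library. Since tags with 1 copy had been removed, this says only that no *Gpc3* tag reached 2 copies.

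The order of the members by level differed between the libraries. In GC-1spg it was *Sdc1* (180 TPM), *Sdc4* (158 TPM), *Sdc2* (34.3 TPM), *Gpc1* (7.49 TPM), *Gpc4* (5.32 TPM) and *Gpc6* (0.394 TPM). There the intervals of *Sdc1* and *Sdc4* overlapped, as did those of *Gpc1* and *Gpc4*. In GC-2spd (ts) it was *Sdc4* (62.0 TPM), *Sdc2* (40.2 TPM), *Gpc4* (36.2 TPM), *Sdc1* (32.6 TPM), *Gpc1* (16.5 TPM) and *Gpc6* (0.846 TPM), and the intervals of *Sdc2*, *Gpc4* and *Sdc1* overlapped. Since the assay takes 1 tag from a transcript, these levels were not divided by transcript length. With sense matches preferred, *Gpc1* stood in the third place in GC-1spg at 38.6 TPM (33.4 to 44.4) and at the top of GC-2spd (ts) at 64.9 TPM (57.9 to 72.6), and these intervals overlapped those of *Sdc2* and *Sdc4*.

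**Figure D2:**
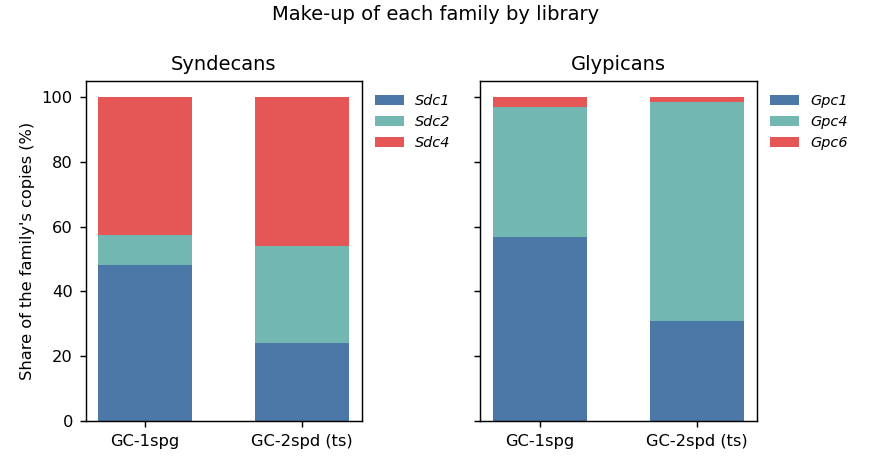
Share of each member in the copies of its family, as stacked bars from 0 to 100% for the 2 libraries, from unambiguous sense tags. Sdc2, with 174 and 190 copies, made up 9.22% and 29.8% of the syndecan copies, and Sdc1 48.3% and 24.2%. By the site nearest the 3′ end alone, Sdc2 made up 0.254% and 0%. Gpc4 went from 40.3% to 67.6% of the glypican copies (12% to 35.5% with sense matches preferred, where Gpc1 held most copies in both).

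The make-up of each family is free of the scaling between libraries. *Sdc1* made up 48.3% (46.0 to 50.6) and 24.2% (20.9 to 27.7) of the syndecan copies. *Sdc2* made up 9.22% (7.95 to 10.6) and 29.8% (26.3 to 33.5), so the intervals of *Sdc1* and of *Sdc2* were apart. *Sdc4* made up 42.5% (40.2 to 44.7) and 46.0% (42.1 to 50.0), and its intervals overlapped. Among the glypicans *Gpc4* made up 40.3% (28.5 to 53.0) and 67.6% (61.4 to 73.3), and *Gpc1* 56.7% (44.0 to 68.8) and 30.8% (25.2 to 36.9). With sense matches preferred *Gpc4* made up 12% and 35.5%, and *Gpc1* 87.1% and 63.7%, so that *Gpc1* was the main glypican of both libraries; the longest transcript gave 12% and 35.6% for *Gpc4*, and tags of several genes 10.4% and 35.5%. By the site nearest the 3′ end alone, *Gpc4* made up 100% in both. When the site nearest the 3′ end alone was counted, *Sdc2* made up 0.254% and 0% of the syndecan copies and *Sdc1* 66.3% and 41.6%.

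The libraries divided the copies of *Sdc1* and of *Sdc4* differently over their CATG sites. The most copied *Sdc1* tag held 70.1% (67.0 to 73.0) and 53.9% (45.7 to 61.9) of the copies of the gene (Fisher's exact test, two-sided, p = 0.000401 after Benjamini-Hochberg adjustment over 5 members). For *Sdc4* the tag of the site nearest the 3′ end held 42.0% (38.6 to 45.5) and 54.9% (49.1 to 60.7), with the same adjusted p of 0.000401 by that exact test. The most copied tag of *Sdc2* held 78.7% and 78.9% (exact test, adjusted p = 1). For *Gpc1* the shares were 86.8% and 82.1%, and for *Gpc4* 63.0% and 70.8% (exact tests, adjusted p = 0.751 for both).

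**Figure D3:**
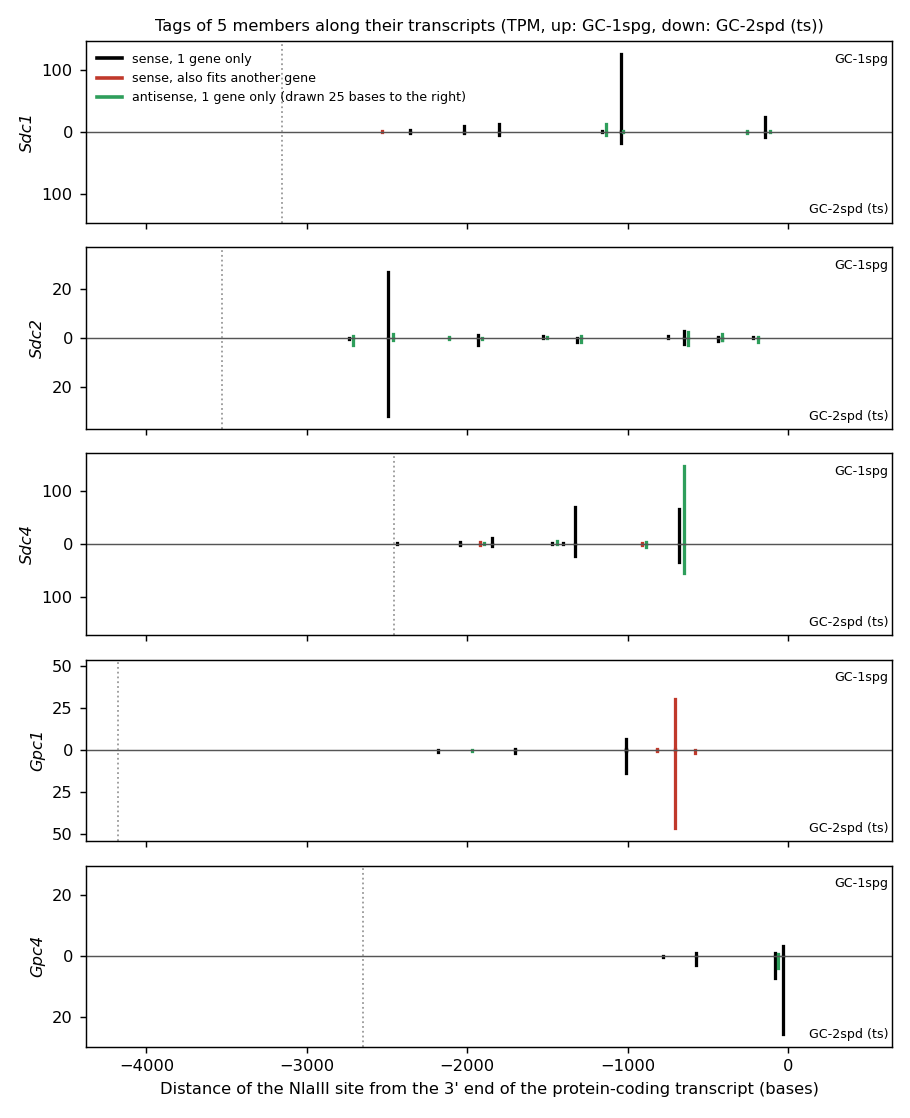
Tags of 5 members along their protein-coding transcript, by distance of the NlaIII site from the 3′ end in bases; bars above the line give TPM in GC-1spg, bars below it TPM in GC-2spd (ts), each panel on its own scale, and the dotted line marks the 5′ end. Most Sdc2 copies came from a site 2492 bases from the 3′ end, the tallest Gpc1 bar (red) was a tag that also fits Ankmy1, and the tallest Sdc4 bar (green) was an antisense tag.

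Both called syndecans kept their direction and size under other ways of counting and scaling. Over 15 alternatives the log2 ratio ranged from -2.64 to -2.34 for *Sdc1*, from -1.52 to -1.06 for *Sdc4* and from 2.59 to 3.06 for *Gpc4*. Alternatives that change only the test or the genes tested leave the ratio as it was. The range comes from the counting, the scaling and the added 0.5 copies. *Gpc1* had a value in 14 of them, from 0.75 to 1.18, and was called in 6. These libraries cannot give the biological coefficient of variation (BCV) between replicates. When it was set to 0.2 in the exact test of edgeR, *Sdc1* and *Gpc4* were called and *Sdc4* was not (FDR 0.0140). With a BCV of 0.4 no member was called, and the FDR was 0.0968 for *Sdc1* and 0.0631 for *Gpc4*.

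**Figure D4:**
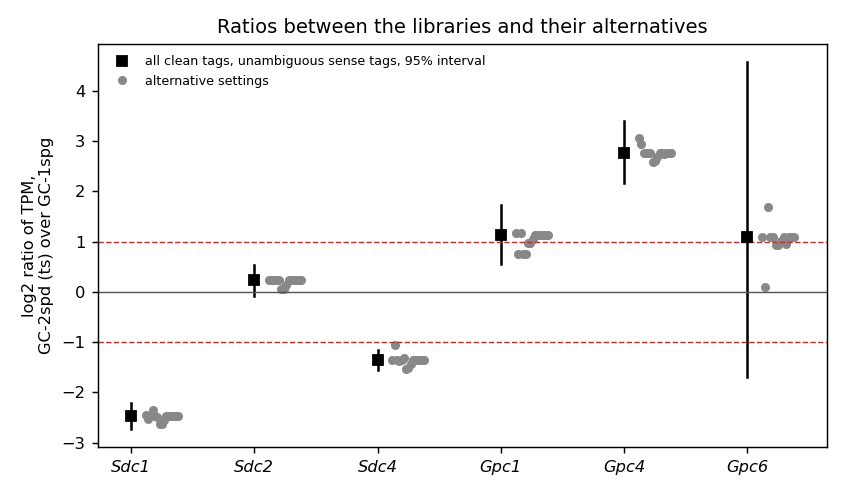
log2 ratio of TPM, GC-2spd (ts) over GC-1spg, for the 6 counted members: black squares with exact 95% intervals for unambiguous sense tags, grey dots for the alternative settings; dashed lines mark -1 and 1. Sdc1, Sdc4 and Gpc4 stayed outside the dashed lines in every setting, and Gpc1 lay on both sides of 1.

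The genes that build, trim and use heparan sulfate were read from lists, described by counts only. Beside these counts, 19.5% of all genes tested were called, and 25.3% of those with at least 100 copies over both libraries. No list was tested against these shares. Chain assembly begins with a xylose on the core protein and proceeds by the exostosin polymerases. Of 11 assembly genes all were listed, and 1 was called. This was *Fam20b*, a kinase of the linkage xylose, with 11 and 224 copies (log2 ratio 4.45), which had 2 and 2 copies and no call when only the longest transcript of each gene was used. The chain polymerases *Ext1* (412 and 381 copies) and *Ext2* (299 and 268 copies) were not called. The median log2 ratio was 0.59 over the 10 assembly genes listed in both libraries, beside 0.16 over all such genes.

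Among 21 genes of chain modification, 16 were listed, 2 were called lower and 2 higher. The median log2 ratio was 0.10 over the 14 listed in both libraries. Both genes called lower add sulfate late in chain synthesis. *Hs6st2*, a 6-O-sulfotransferase, had 784 and 150 copies, a log2 ratio of -2.28 (-2.55 to -2.03). *Hs3st1*, a 3-O-sulfotransferase, had 214 and 8 copies, a log2 ratio of -4.64 (-5.87 to -3.64). The genes called higher supply the sulfate donor, *Papss1*, which makes it (129 and 329 copies), and *Slc35b2*, which carries it into the Golgi (163 and 415 copies), each with a log2 ratio of 1.45. *Ndst1*, which starts sulfation, had 350 and 276 copies and was not called.

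Of 11 genes that edit or degrade the chains, 10 were listed. The median log2 ratio was 0.89 over the 8 listed in both libraries, which leaves out *Sulf1*. *Sulf1*, which removes 6-O-sulfate at the cell surface, had 176 copies in GC-1spg and none listed in the other library, lower by at least 15.6-fold, whereas its relative *Sulf2* had 72 and 59 copies and was not called. Lysosomal enzymes were among the genes called higher. *Gusb* had 2 and 523 copies, *Ids* 55 and 154, and *Hgsnat* 160 and 308. The *Hgsnat* call (log2 ratio 1.05) was lost with the site nearest the 3′ end alone (7 and 8 copies, 0.29), with tags of several genes (0.97) and with TMM scaling (0.87).

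The list of other possible heparan sulfate carriers had 2 genes called higher, 1 called lower and 6 not called among 9 listed of 12. The median log2 ratio was 0.97 over the 7 listed in both libraries. Tag counts of a gene do not show whether its protein carried heparan sulfate. *Cd44*, the hyaluronan receptor, had 165 and 1464 copies (log2 ratio 3.25), and *Nrp2*, a neuropilin, 237 and 526 (1.25). *Tgfbr3*, betaglycan, had 217 and 70 copies, a log2 ratio of -1.53. The basement membrane carriers *Hspg2* (364 and 389 copies) and *Agrn* (181 and 330 copies) were not called.

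Of 11 genes of shedding and release, 9 were listed. The median log2 ratio was 0.56 over the 6 listed in both libraries, which leaves out *Pcsk5*. The matrix proteases *Mmp2*, with 454 and 1586 copies (log2 ratio 1.91), and *Mmp14*, with 41 and 363 copies (3.25), were called higher, and the *Mmp14* call was lost when only the longest transcript was used (6 and 12 copies) and turned to a log2 ratio of -0.66 (19743 and 11614 copies) when tags of several genes were counted. The proprotein convertase *Pcsk5* was called lower, with 24 and 0 copies, at least 2.88-fold, but not when the site nearest the 3′ end alone was counted (8 and 0 copies). *Adam10* (385 and 551 copies) and *Adam17* (103 and 124 copies), which can shed syndecans, were not called. The protease inhibitor *Timp3* was called lower only when tags antisense to another gene or tags of several genes were kept (4012 and 1647 copies with sense matches preferred).

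All 14 partners of the syndecan tail were listed, with a median of 0.21. The main PDZ partner *Sdcbp*, syntenin, had 1266 and 1572 copies and was not called. *Ezr*, ezrin, was called lower with 1701 and 764 copies, a log2 ratio of -1.05, and lost the call with an assumed BCV of 0.2. *Gipc1* (73 and 151 copies, log2 ratio 1.15), *Cask* (38 and 92 copies, 1.38) and *Tiam1* (29 and 61 copies, 1.17) were called higher, each only by some ways of counting. With TMM scaling *Gipc1* and *Tiam1* lost the call and *Src* was called lower (log2 ratio -1.07), and with the site nearest the 3′ end alone *Cask* and *Tiam1* lost it.

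Among 19 heparin-binding ligands, 13 were listed, 6 were called higher and 2 lower, with a median of 1.21 over the 11 listed in both. The chemokine *Cxcl12* had 9 and 1698 copies, and the matrix protein *Thbs1* 195 and 1831. The growth factors *Pdgfa* (9 and 60 copies), *Fgf2* (5 and 30) and *Hbegf* (33 and 80) and the secreted signal *Wnt5a* (71 and 153) were called higher as well. *Bmp4* was called lower with 426 and 134 copies, and the heparin-binding factor *Mdk*, midkine, had 51 and 0 copies, lower by at least 7.55-fold. *Fn1*, fibronectin, had 2351 and 1211 copies and a log2 ratio of -0.86, which passed the threshold with TMM scaling (-1.03). With an assumed BCV of 0.2, the calls of *Papss1*, *Slc35b2*, *Ids*, *Hgsnat*, *Tgfbr3*, *Nrp2* and *Ezr* in these lists were lost. Those of *Gipc1*, *Cask*, *Tiam1*, *Hbegf*, *Fgf2*, *Wnt5a* and *Bmp4* were lost too. With a BCV of 0.4 only *Hs3st1*, *Sulf1*, *Gusb*, *Cxcl12* and *Mdk* kept the call.

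**Figure D5:**
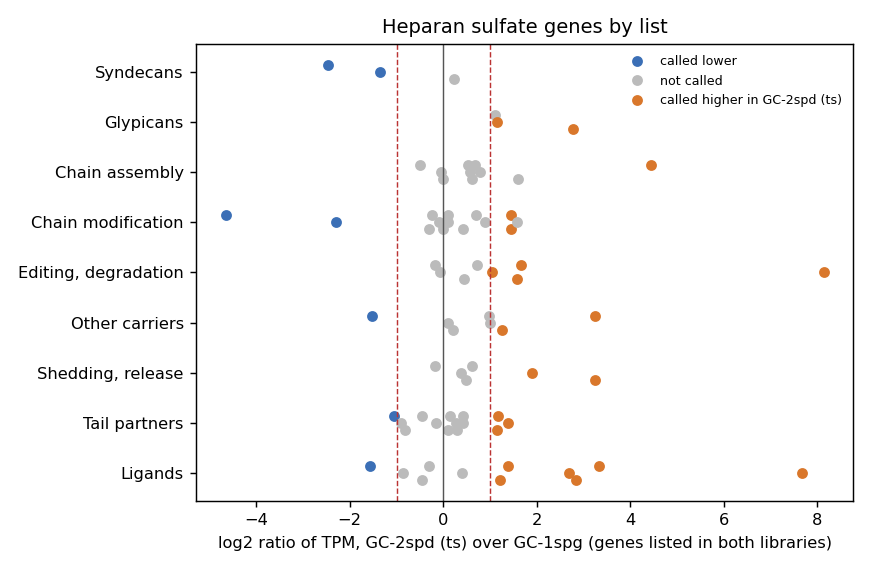
log2 ratio of TPM, GC-2spd (ts) over GC-1spg, for each gene of the heparan sulfate lists with tags in both libraries, by list; orange points were called higher, blue points lower, grey points not called, and dashed lines mark -1 and 1. The ligands and the degrading enzymes held the points farthest to the right (Gusb at 8.13 and Cxcl12 at 7.66), and Hs3st1 the one farthest to the left (-4.64).

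The genes nearest to *Sdc4*, by the Euclidean distance of log2 TPM over the 2 libraries, were *F11r* (747 and 288 copies, distance 0.105), *Rpl13a* (746 and 298 copies, 0.107) and *Dpp3* (818 and 322 copies, 0.139).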

How the data were processed

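Per the labels and the study's methods, total RNA of each line was made into tags of 21 bases with NlaIII and MmeI and sequenced. Tags from adaptors, of low quality or with a copy number of 1 were discarded by the authors, who deposited raw copy counts of the clean tags and a TPM value for each (copies per 1000000 clean tags, rounded to 2 decimals). The deposited counts were used here, and TPM was recomputed from them. The program the study matched tags with was not given in the sources used here. Tags were matched with at most 1 mismatch to all CATG+17 tags of 141767 GENCODE M21 transcripts (GRCm38), on both strands. A tag counted for a gene if its best matches were to the sense strand of that gene only. Ratios were tested with the two-sided Audic-Claverie test (Python 3.11.15, scipy 1.17.1) and Benjamini-Hochberg adjustment over all genes, and called at FDR 0.001 and a log2 ratio of 1, with 0.01 TPM for an unlisted gene. edgeR's quasi-likelihood test cannot be run with 1 library per line. Instead edgeR 4.0.16 (R 4.3.3) gave TMM factors and exact tests with an assumed BCV. Intervals are exact Poisson intervals for levels and exact Clopper-Pearson intervals for ratios and shares. A bound written "at least" uses the one-sided 95% Poisson limit for 1 unlisted copy per tag. The calling step was run on simulated Poisson counts without variation between replicates. That run checks the code and cannot show how the calls hold under such variation. The alternatives were 6 ways of matching and counting tags, 3 scalings, an exact binomial test, a minimum of 10 copies, 0.5 copies added, and the 3 values of BCV. No sequencing batch was named in the labels. Named genes were all members, every called gene of the pathway lists, defining markers, and the 3 genes nearest *Sdc4*, the most copied member over both libraries; *Ext1*, *Ext2*, *Ndst1*, *Sulf2*, *Hspg2*, *Agrn*, *Adam10*, *Adam17*, *Sdcbp*, *Timp3*, *Src* and *Fn1*, not called, were added after their values were seen. The values of 1 called gene of the lists are not reported here. The members and lists were chosen with earlier results of these data known.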

Additional observations from a re-analysis of the deposited data

Results flagged for a closer look

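Antisense tags of the members, which entered none of the sense counts, were above the limit that a count of 0 allows for 4 members. *Sdc4* had 812 antisense copies in GC-1spg and 283 antisense copies in GC-2spd (ts), beside 802 and 293 sense copies, so 50.3% and 49.1% of its copies were antisense. The median over genes with at least 100 copies was 8.06% in GC-1spg (5311 genes) and 6.62% in GC-2spd (ts) (5513 genes), and 153 and 132 of these genes were at or above *Sdc4*. The antisense level of *Sdc4* was lower in GC-2spd (ts), with a log2 ratio of -1.42 (-1.62 to -1.22) that is set beside -1.35 for the sense tags.

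Of these antisense copies 752 and 255 came from the antisense tag printed in the report, at chr2:164424922-164424942 (GRCm38). It starts from the same CATG as the sense tag with 337 and 161 copies and reads away from it, so the tags share 4 bases. Per copy of that sense tag there were 2.23 and 1.58 antisense copies. The nearest annotated gene on the plus strand was *Rbpjl*, whose end lies 9474 bases away. The origin of these tags was not tested.

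*Sdc1* had 96 and 31 antisense copies, a log2 ratio of -1.53 (-2.16 to -0.93), and 9.52% and 16.8% of its copies were antisense. *Sdc2* had 48 and 55 antisense copies, a log2 ratio of 0.30 (-0.29 to 0.89), at 21.6% and 22.4% of its copies. *Gpc4* had 3 antisense copies in GC-1spg, which is not above that limit, and 19 in GC-2spd (ts), 10.0% of its copies in each. All these intervals cover counting error only.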

How the results depend on the processing

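No log2 ratio of a counted member changed sign under any of the 15 alternatives that gave it a value. The 2 members called lower, *Sdc1* and *Sdc4*, stayed 2 except that 1 was left with an assumed BCV of 0.2 and 0 with 0.4, and *Gpc2* joined them when tags of several genes were counted. Of the 2 called higher, only 1 (*Gpc4*) was left with the site nearest the 3′ end, the longest transcript, sense matches preferred, tags of several genes, TMM, median of ratios, and a BCV of 0.1 or 0.2, and 0 with a BCV of 0.4. Members called in all fell from 4 to 2 and 0 at a BCV of 0.2 and 0.4 in edgeR's exact test. Genes called in all fell from 2817 to 1000 and 244 at those values (511 and 108 higher, 489 and 136 lower), and the higher calls rose to 2542 with tags of several genes. TMM lowered every log2 ratio by 0.17 and turned 1684 higher and 1133 lower calls into 1292 and 1443, with 2425 of the 2817 calls shared. Of 86 log2 ratios of members under alternatives, 74 stayed called or uncalled as before and 12 lost the call. The *Gpc6* ratio, never called, went from 1.10 to between 0.10 and 1.69. Of 108 family shares, 36 moved beyond their interval, and the site tests called 2 or 3 members. No paired analysis was possible because each line had 1 library, and for that reason no replicate could be left out. A tag needed 2 copies to be listed, so a tag below 0.394 TPM in GC-1spg or 0.423 TPM in GC-2spd (ts) could not be seen.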

Other observations

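Part of the tags of some members could not be given to 1 gene. Of the 40 possible *Gpc1* tags 9 fit another gene as well, of the 12 possible *Gpc2* tags 6, and of the 26 possible *Sdc3* tags 5, whereas all possible tags of *Sdc2* (13), *Gpc3* (20), *Gpc4* (12) and *Gpc6* (31) were their own. In the overlap of *Gpc1* and *Ankmy1* the most copied tag read in the sense of *Ankmy1* had 135 and 178 copies (GC-1spg first). A coding tag of *Sdc1* with 11 and 0 copies also fits the pseudogenes *Gm14724* and *Gm16407* and was left out of the *Sdc1* count.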
